A study of Mus musculus with 12 samples.

Results

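The genes described here are those of the 4 mouse Hox clusters together with 2 long noncoding RNAs beside or within them, Halr1 and Hotair. They were taken by symbol from 2 tables. Of 20194 genes in an RNA-seq table of mouse muscle, 42 belonged to this group. They were 36 Hox protein genes and 6 noncoding RNAs, and by cluster there were 13 in HoxA with Halr1, 11 in HoxB, 10 in HoxC with Hotair and 8 in HoxD. Of 38244 ATAC-seq peaks in C2C12 myotubes, 34 carried the name of such a gene, and 16 different names occurred.

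Hox genes encode homeodomain transcription factors that give cells of the embryo their place along the body and limb axes. Within a cluster the genes are transcribed in the same direction, and their order follows the order of the regions in which they act. Low-numbered genes at the 3′ end act toward the head, and high-numbered genes at the 5′ end act toward the tail and the tip of the limb. Adult muscle and connective tissue keep part of the Hox pattern of the region they came from. Polycomb proteins hold silent parts of a cluster closed, and trithorax proteins keep active parts open.

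The RNA came from C57BL/6 mice. The 3 LLC libraries were from muscle of mice that had received 500000 Lewis lung carcinoma cells under the skin, and the 3 PBS libraries from mice injected with PBS, with tissue taken on day 22 in both groups. Open chromatin was measured by ATAC-seq, in which a transposase cuts accessible DNA, in C2C12 myotubes after 24 hours in medium conditioned by C26 colon carcinoma cells, or in control medium, with 3 libraries each. C2C12 is a single mouse muscle cell line (C3H background), and the labels call its cells myoblasts in one field and myotubes in another. Which muscle was taken is not in the labels, nor whether the libraries of 1 group stem from different animals or dishes, so each p-value rests on a spread that may be technical. RNA and open chromatin were measured in different material, and a gene's RNA in the myotubes was not analysed here.

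Depth was 17.0 to 20.1 M tags in the RNA libraries and 10.1 to 18.2 M in the ATAC libraries (1 M is 1000000 tags). All 8 muscle fibre markers were expressed in every RNA library, with summed levels of 37780 to 43410 FPKM in LLC and 32970 to 38690 FPKM in PBS muscle (FPKM, fragments per kilobase of exon and per M tags). The libraries also carried other tissue in amounts that differed within each group. The summed level of 6 neutrophil precursor markers was 3565, 6338 and 86.0 FPKM in LLC 1 to 3, against 96.1, 3836 and 7404 FPKM in PBS 1 to 3. The 6 epidermis markers summed to 1433, 70.0 and 587 FPKM in LLC 1 to 3, against 0.551, 7.91 and 129 FPKM in PBS 1 to 3. In the ATAC libraries the share of read ends inside peaks was 13, 12 and 13.5% in C26 medium 1 to 3, against 27, 13.1 and 17.9% in controls 1 to 3, so control 1 stood apart. Of the 8 muscle fibre markers 3 had an ATAC peak within 1000 bp of their start (Des, Tnnt3 and Ttn), as did 4 of 7 fibroblast, 3 of 5 blood stem and progenitor, 2 of 6 neutrophil precursor, 0 of 6 epidermis and 0 of 5 B cell precursor markers, so these peaks do not set muscle apart.

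Promoter windows of 4 genes are shown first, because the results below turn on them. Halr1 had the largest difference between LLC and PBS muscle among the 21 genes tested here. Hoxa5 and Hoxa3, whose annotated starts lie 101.6 and 110.1 kb from the Halr1 start, were without and with an open promoter in C2C12. Hoxa11 was the single gene whose LLC libraries all lay below the PBS libraries. The windows run from 250 bases before to 50 bases after the RefSeq start (GRCm38.p6) and lie on chromosome 6. Halr1 is on the plus strand at chr6:52102699-52102998. The other three are on the minus strand, Hoxa5 at chr6:52204538-52204837, Hoxa3 at chr6:52213018-52213317 and Hoxa11 at chr6:52245761-52246060. Capitals mark CAGCTG, an E-box of the form that MyoD and myogenin bind, which reads the same on both strands.

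Halr1 promoter: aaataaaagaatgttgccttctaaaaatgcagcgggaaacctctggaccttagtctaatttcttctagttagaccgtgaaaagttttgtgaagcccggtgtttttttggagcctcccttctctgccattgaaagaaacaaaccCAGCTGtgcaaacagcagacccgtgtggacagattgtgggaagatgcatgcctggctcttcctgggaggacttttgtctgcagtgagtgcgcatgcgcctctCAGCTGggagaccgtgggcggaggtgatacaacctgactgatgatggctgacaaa
Hoxa5 promoter: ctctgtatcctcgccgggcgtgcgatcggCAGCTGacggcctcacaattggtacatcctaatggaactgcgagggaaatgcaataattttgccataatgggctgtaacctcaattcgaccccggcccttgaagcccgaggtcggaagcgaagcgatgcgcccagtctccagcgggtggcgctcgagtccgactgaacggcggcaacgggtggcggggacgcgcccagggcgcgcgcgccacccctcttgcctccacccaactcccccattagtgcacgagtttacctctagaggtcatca
Hoxa3 promoter: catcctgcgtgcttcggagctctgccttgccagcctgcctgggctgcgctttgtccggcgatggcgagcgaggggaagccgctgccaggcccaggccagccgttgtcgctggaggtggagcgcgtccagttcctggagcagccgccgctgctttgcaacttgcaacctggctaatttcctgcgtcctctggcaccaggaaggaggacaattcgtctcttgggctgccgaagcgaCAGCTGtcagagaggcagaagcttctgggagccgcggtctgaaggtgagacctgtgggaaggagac
Hoxa11 promoter: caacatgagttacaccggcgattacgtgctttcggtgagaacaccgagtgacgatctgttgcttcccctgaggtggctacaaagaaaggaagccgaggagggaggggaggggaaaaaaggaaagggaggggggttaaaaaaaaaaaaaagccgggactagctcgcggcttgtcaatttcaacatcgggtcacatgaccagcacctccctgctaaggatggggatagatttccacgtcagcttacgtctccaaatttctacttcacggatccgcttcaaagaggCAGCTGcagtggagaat

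Halr1 held 2 such E-boxes, 107 and 5 bases upstream of its start. Hoxa5 held 1, 221 bases upstream, and Hoxa3 held 1, 16 bases upstream. In Hoxa11 it lay 33 bases downstream. The RefSeq table had a window for 24 of the 42 genes, and 7 of those 24 held CAGCTG, against 16.3% of 32851 mouse promoter windows. Of 3 further motifs searched on both strands, TGATNNAT (a Hox-Pbx form, 8.85% of all windows) was in 3 of the 24, TATAAA (13.6%) in 4 and TTCNNNGAA (a STAT form, 8.3%) in 1. These are letters in a window and no evidence of binding. The 24 windows had a median of 13.5 CpG dinucleotides (4 to 45), against 7 in all windows. The whole Hoxa3 and Hoxa11 windows lay inside an ATAC peak of C2C12, and the Halr1 and Hoxa5 windows overlapped none.

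The highest levels in muscle belonged to genes of paralog groups 8 to 10, which in the embryo act in the lower trunk and the limbs. Of the 42 genes 23 reached a mean of 1 FPKM in at least 1 group, 19 stayed below 1 FPKM in both, and no gene was at 0 in all 6 libraries. Hoxc10, a gene of the lumbar region and hindlimb, had the highest level of all, at 26.9, 26.1 and 29.2 FPKM in LLC 1 to 3 and 36.8, 24.7 and 21.4 FPKM in PBS 1 to 3. It alone made up 25.9 to 26.8% of the summed FPKM of the 42 genes in LLC libraries and 27.1 to 31.7% in PBS libraries. Hoxd8 and Hoxa10 came next with means of 12.1 and 8.56 FPKM in LLC muscle and 10.8 and 11.3 FPKM in PBS muscle, and their order did not hold beyond the spread between libraries. Hoxa9, Hoxc9 and Hoxd9 followed at 4.91, 4.91 and 4.83 FPKM in LLC muscle, against 3.83, 3.31 and 4.08 FPKM in PBS muscle, levels that did not differ from each other beyond their spread. HoxB stayed low throughout, with no value above 2.26 FPKM. Of the limb identity factors, Tbx4, which marks the hindlimb, was at 1.46 ± 0.20 FPKM in LLC and 1.04 ± 0.086 FPKM in PBS muscle, Tbx5, which marks the forelimb, at 0.0883 ± 0.070 and 0.0997 ± 0.031 FPKM, and Pitx1, a hindlimb factor, at 0.493 ± 0.23 and 0.586 ± 0.21 FPKM (SD, n = 3).

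**Figure D1:**
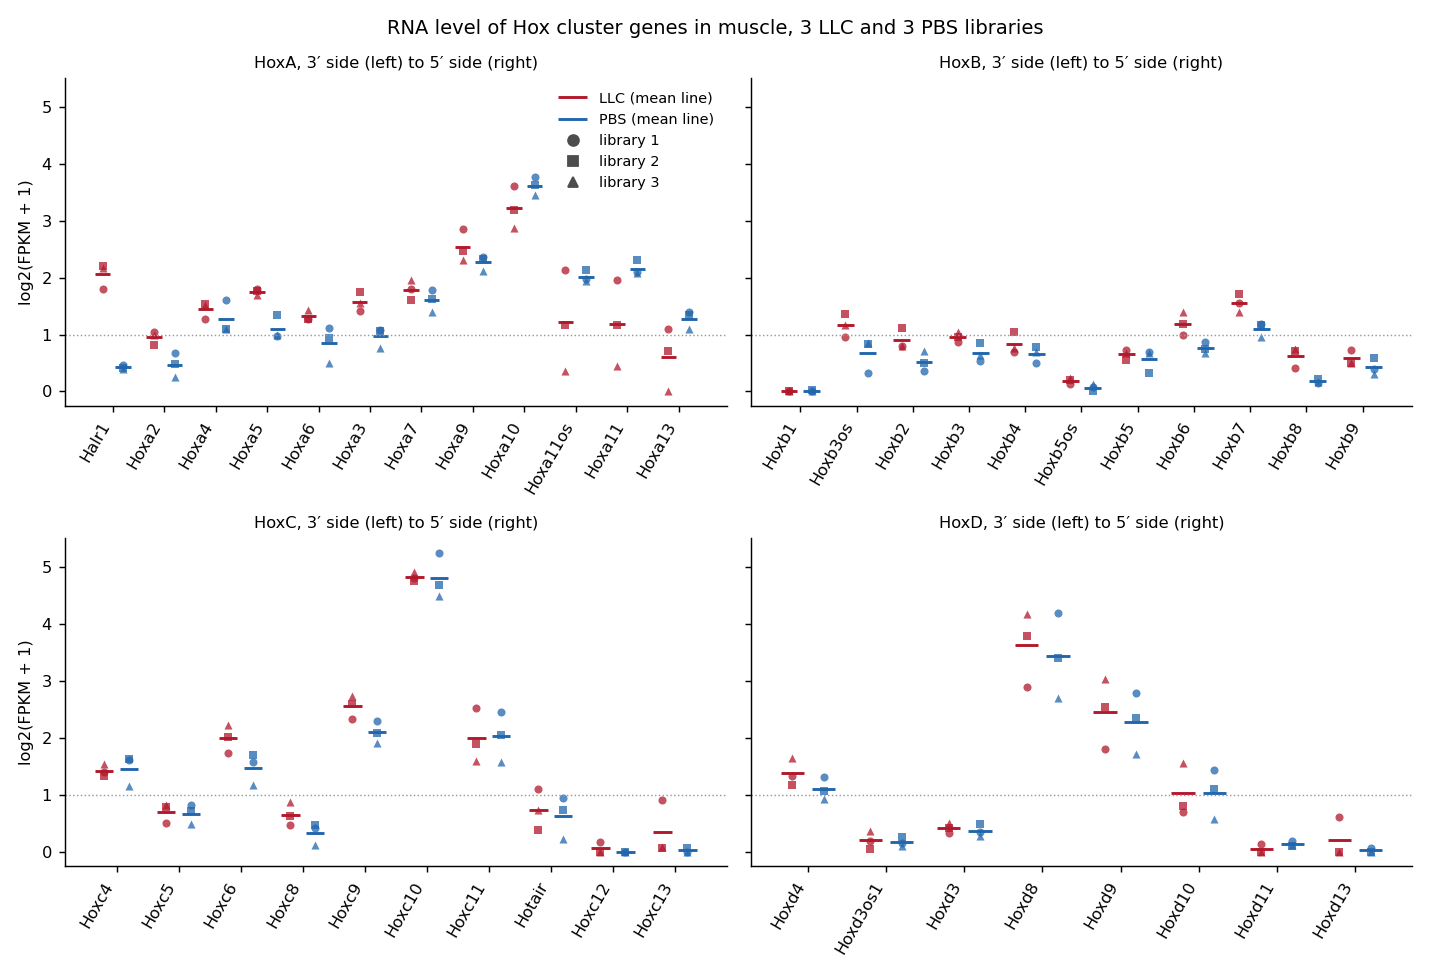
RNA level of the genes in the 6 muscle libraries, in the order of the genes along each cluster. The y axis is log2(FPKM + 1), red marks are LLC and blue marks PBS libraries 1 to 3, short lines are group means, and the dotted line is 1 FPKM. Hoxc10 is the highest gene, all 3 LLC libraries of Halr1 lie well above the PBS libraries, and Hoxa11, Hoxa11os and Hoxa13 spread widely among the LLC libraries.

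No single gene passed the test between LLC and PBS muscle. In limma on log2(FPKM + 1), 0 of 12981 genes tested (0.0%) had an adjusted p under 0.05, and therefore 0 of the 21 members tested. At an unadjusted p under 0.05 there were 7 of the 21 members, Halr1, Hoxa3, Hoxa5, Hoxb7, Hoxc6 and Hoxc9 above 0 and Hoxa11 below 0, against 7.63% of all genes tested, and edgeR on recovered reads also called 0 at an adjusted p under 0.05. The count of 7 depended on the fit. It was 3 in edgeR, after quantile normalization, with the replicate block, without LLC 2 and without PBS 3 (5.06 to 7.18% of all genes tested). It was 4 in TPM, without LLC 3 and without PBS 2 (4.24 to 7.16%). Without LLC 1 it was 9 (5.83%), and without PBS 1 it was 6, where 20.4% of all genes tested lay under 0.05. The 21 were those with a mean of at least 1 FPKM over the 6 libraries. Over all 42 genes the log2 difference lay above 0 for 33, with a median of 0.18, where 52.8% of all 20194 genes lay above 0. Of the 21 tested, 14 lay above 0 (53.0% of all genes tested). The count was 12 without LLC 3 (58.5%) and 11 without PBS 3 (62.0%). It was 15 without LLC 1 (51.4%) and without PBS 2 (61.7%), and 17 without LLC 2 (49.7%) and without PBS 1 (40.4%). The share above 0 thus depended on which library was left out. All 3 LLC libraries exceeded all 3 PBS libraries for 14 of the 42, against 8.09% of all genes, and lay below them for 1, against 4.02% of all genes. The count below was 5 without LLC 1 (7.34% of all genes) and 4 without PBS 3 (8.68%). Groups overlapped for the other 27. The bulk values cannot tell fewer cells of a type from less RNA per cell.

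Halr1, a noncoding RNA that lies beyond the 3′ end of HoxA and has been studied in mouse embryonic stem cells as a regulator of that cluster, differed most. It stood at 2.48, 3.60 and 3.52 FPKM in LLC 1 to 3, against 0.372, 0.334 and 0.313 FPKM in PBS 1 to 3. The groups were far apart and each was tight. The means were 3.20 ± 0.63 FPKM in LLC and 0.340 ± 0.030 FPKM in PBS muscle (SD, n = 3), a 9.41-fold ratio. The counts behind them were small, with 49, 69 and 78 recovered read ends in LLC 1 to 3, against 7, 7 and 6 in PBS 1 to 3. The log2 difference was 1.64 (SE 0.16) on the log2(FPKM + 1) scale and missed the threshold in limma (adjusted p = 0.108), and it was 3.18 in edgeR (adjusted p = 0.106). Over 15 alternatives the adjusted p ran from 0.0987 to 0.642. The Halr1 transcript (NR_110440) spans chr6:52102949-52113684 on the plus strand (mm10), away from the Hox genes themselves, and no other annotated gene of the table overlapped it. The sum of 5 endothelium markers moved in the same direction. It was 170, 181 and 211 FPKM in LLC 1 to 3, against 94.9, 95.4 and 77.5 FPKM in PBS 1 to 3. Among LLC libraries the order differed, with Halr1 highest in LLC 2 and the sum highest in LLC 3. Any gene higher in every LLC library would move with Halr1 between the groups. Of the 5 markers 4 were higher in every LLC library, and none was at 0. The remaining marker, Kdr, overlapped between groups, at 9.78 ± 1.4 FPKM in LLC and 11.5 ± 1.5 FPKM in PBS muscle. The part of these markers in the Halr1 result was not tested.

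Along HoxA the differences changed sign with position. Hoxa2, Hoxa3 and Hoxa4, all 3 genes of paralog groups 5 to 8 and Hoxa9 lay above 0, and Hoxa10, Hoxa11os, Hoxa11 and Hoxa13 lay below 0. Hoxa5, a regulator of thoracic and lung development, stood at 2.49, 2.40 and 2.22 FPKM in LLC 1 to 3, against 0.958, 1.55 and 0.986 FPKM in PBS 1 to 3, with no overlap. Its log2 difference was 0.65 (SE 0.16, limma adjusted p = 0.365). Hoxa3, needed for structures of the pharynx and neck, stood at 1.65, 2.34 and 1.93 FPKM in LLC 1 to 3, against 1.11, 1.08 and 0.705 FPKM in PBS 1 to 3, a log2 difference of 0.60 (SE 0.17, limma adjusted p = 0.422). Hoxa6 and Hoxa2 also had no overlap between groups, with means of 1.51 and 0.946 FPKM in LLC, against 0.838 and 0.398 FPKM in PBS muscle. Hoxa4, Hoxa7 and Hoxa9 overlapped. The annotated Hoxa3 span, introns included, holds Hoxa4, Hoxa5 and Hoxa6 on the same strand. The spans of the antisense RNAs Hoxaas2 and Hoxaas3 overlap that of Hoxa3. Reads in shared exons could not be told apart, and how far exons overlap was not examined.

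At the 5′ side of HoxA the LLC libraries differed widely from each other. Hoxa11, which patterns the forearm and lower leg, stood at 2.89, 1.24 and 0.360 FPKM in LLC 1 to 3, against 3.28, 3.93 and 3.22 FPKM in PBS 1 to 3. All LLC values lay below all PBS values, LLC 1 by little and LLC 3 by much. The log2 difference was -0.97 (SE 0.38, limma adjusted p = 0.633) and ran from -1.36 without LLC 1 to -0.60 without LLC 3. Hoxa11os, read from the opposite strand with a span that overlaps Hoxa11, had 3.38, 1.24 and 0.285 FPKM in LLC 1 to 3, against 2.92, 3.37 and 2.86 FPKM in PBS 1 to 3. Unstranded counts do not separate it from Hoxa11 where exons overlap. Hoxa13, which patterns hand and foot, had 1.14 and 0.645 FPKM in LLC 1 and 2 and was at 0 in LLC 3, against 1.64, 1.52 and 1.13 FPKM in PBS 1 to 3. Hoxa10, which acts at the upper leg and lumbar level, had 11.2, 8.11 and 6.37 FPKM in LLC 1 to 3, against 12.6, 11.3 and 10.0 FPKM in PBS 1 to 3, with LLC 1 inside the PBS range. In all 4 genes LLC 1 was highest and LLC 3 lowest among LLC libraries. Tendon markers had the same order, with sums of 238, 83.5 and 38.0 FPKM in LLC 1 to 3, against 408, 366 and 272 FPKM in PBS 1 to 3. Of the 6 markers 4 were lower in every LLC library and none was at 0. That order was not particular to tendon. Osteoblast markers summed to 33.3, 18.9 and 0.203 FPKM in LLC 1 to 3, against 0.312, 131 and 96.7 FPKM in PBS 1 to 3. The smooth muscle and pericyte sum and the blood stem and progenitor sum also had it. Neutrophil precursor and epidermis sums did not. The part of the tendon markers in the values of Hoxa10 to Hoxa13 was not tested.

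**Figure D2:**
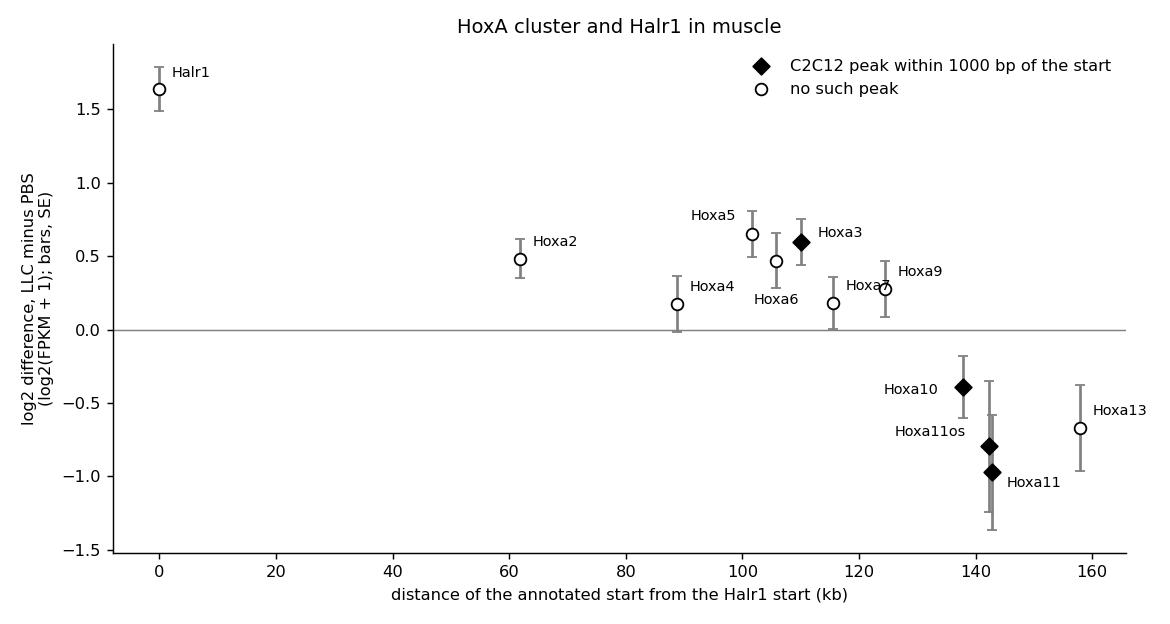
Log2 difference of Halr1 and the HoxA genes between LLC and PBS muscle (y axis, log2(FPKM + 1) scale with no filter on low values, bars are SE, n = 3 each) against the distance of the gene's start from the Halr1 start in kb (x axis). Filled diamonds have a C2C12 ATAC peak within 1000 bp of the start. Points from Halr1 to Hoxa9 lie above 0, and points from Hoxa10 to Hoxa13 lie below 0.

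The RNAs transcribed between the HoxA genes were looked at after their values had been seen. Hotairm1 (1.96 ± 0.40 FPKM in LLC and 0.700 ± 0.40 FPKM in PBS muscle), Hotairm2 (1.03 ± 0.23 and 0.550 ± 0.086 FPKM), Hoxaas2 (0.699 ± 0.22 and 0.217 ± 0.059 FPKM) and Hoxaas3 (0.381 ± 0.075 and 0.154 ± 0.11 FPKM) lie at the 3′ side, and for each all LLC libraries lay above all PBS libraries (SD, n = 3). Mira (5.11 ± 0.94 and 4.81 ± 0.50 FPKM), Gm15050 (0.527 ± 0.067 and 0.487 ± 0.15 FPKM) and the microRNA gene Mir196b (1.30 ± 1.2 and 1.37 ± 1.2 FPKM) overlapped between groups. Hottip, beyond Hoxa13 at the 5′ side and known in human cells for its tie to the 5′ HoxA genes, had 1, 0 and 0 recovered read ends in LLC 1 to 3, against 3, 7 and 10 in PBS 1 to 3. Of these 8 RNAs 4 were thus higher without overlap (8.09% of all genes), 1 was lower (4.02%) and 3 overlapped. Apart from Mira, each rests on at most 49 read ends in any library. Introns included, the span of Hoxaas2 overlaps that of Hoxa3, and the span of Hoxaas3 overlaps those of Hoxa3, Hoxa5 and Hoxa6, on the other strand. Unstranded reads in shared exons cannot be assigned to 1 of them alone, and exon overlap was not examined.

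HoxB was low, and most of its differences pointed one way. Of 11 genes, 10 had a log2 difference above 0 (52.8% of all genes), and 6 had all LLC libraries above all PBS libraries (8.09% of all genes). Only Hoxb7 was expressed highly enough to be tested. Hoxb7, the highest, stood at 1.94, 2.26 and 1.64 FPKM in LLC 1 to 3, against 1.28, 1.25 and 0.935 FPKM in PBS 1 to 3. Its log2 difference was 0.45 (SE 0.15, limma adjusted p = 0.549). Hoxb8, which in blood acts in myeloid progenitors, stood at 0.328, 0.634 and 0.679 FPKM in LLC 1 to 3, against 0.111, 0.170 and 0.120 FPKM in PBS 1 to 3, from 31, 58 and 72 against 10, 17 and 11 read ends. The other four were Hoxb2, Hoxb3, Hoxb3os and Hoxb6, with ratios of LLC to PBS means of 1.56 to 2.04, and Hoxb3os overlaps Hoxb2 and Hoxb3 on the other strand. Hoxb9, the highest-numbered gene of the cluster in the table, overlapped between groups at 0.499 ± 0.14 FPKM in LLC and 0.354 ± 0.14 FPKM in PBS muscle. Hoxb1 had 1 read end in 1 PBS library and none elsewhere.

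HoxC held the most strongly expressed gene and no uniform direction. Hoxc9, of the thoracic and lumbar region, stood at 4.04, 5.07 and 5.63 FPKM in LLC 1 to 3, against 3.93, 3.25 and 2.74 FPKM in PBS 1 to 3, a log2 difference of 0.46 (SE 0.17, limma adjusted p = 0.602). Hoxc6, of the upper thorax, stood at 2.34, 3.03 and 3.66 FPKM in LLC 1 to 3, against 1.96, 2.24 and 1.24 FPKM in PBS 1 to 3, a log2 difference of 0.52 (SE 0.21, limma adjusted p = 0.648). Both pairs of groups stood apart by small gaps. Hoxc10, Hoxc11 and Hoxc4 had log2 differences of 0.02, -0.03 and -0.04, with SE of 0.21, 0.33 and 0.18, and overlapping groups. Hotair, transcribed between Hoxc11 and Hoxc12 on the other strand and described in human cells as a repressor that acts on HoxD, stood at 1.15, 0.299 and 0.662 FPKM in LLC 1 to 3, against 0.914, 0.654 and 0.169 FPKM in PBS 1 to 3, so its groups overlapped. Hoxc13, a gene of hair and nail, had 0.862, 0.048 and 0.062 FPKM in LLC 1 to 3, against 0, 0.043 and 0 FPKM in PBS 1 to 3, and LLC 1, with 75 of the 85 read ends of the LLC libraries, set the LLC mean. LLC 1 also had the highest epidermis marker sum, 1433 FPKM. LLC 2 and 3 had sums of 70.0 and 587 FPKM at similar Hoxc13 levels, and PBS 3 had 129 FPKM with no Hoxc13. The part of that tissue in the Hoxc13 value was not tested.

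HoxD varied more within the groups than between them. Hoxd8, the highest, stood at 6.45, 12.9 and 17.1 FPKM in LLC 1 to 3, against 17.3, 9.62 and 5.49 FPKM in PBS 1 to 3, a log2 difference of 0.19 (SE 0.48, limma adjusted p = 0.9998). Hoxd9 and Hoxd10, its neighbours, had the same order of libraries within each group. LLC 3 and PBS 1, where the 3 genes were highest, were the libraries with the lowest neutrophil precursor sums, 86.0 and 96.1 FPKM, and LLC 1 and PBS 3, where they were lowest, had 3565 and 7404 FPKM. LLC 2 had the highest sum among LLC libraries, 6338 FPKM, and yet more Hoxd8 than LLC 1, so the levels did not follow the sum in order. What these markers contribute was not tested. Hoxd4 stood at 1.63 ± 0.46 FPKM in LLC and 1.15 ± 0.29 FPKM in PBS muscle, with overlap. Hoxd13, which patterns digits, had 0.522 FPKM in LLC 1 and 0.046 FPKM in PBS 1, and none in the other 4 libraries.

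**Figure D3:**
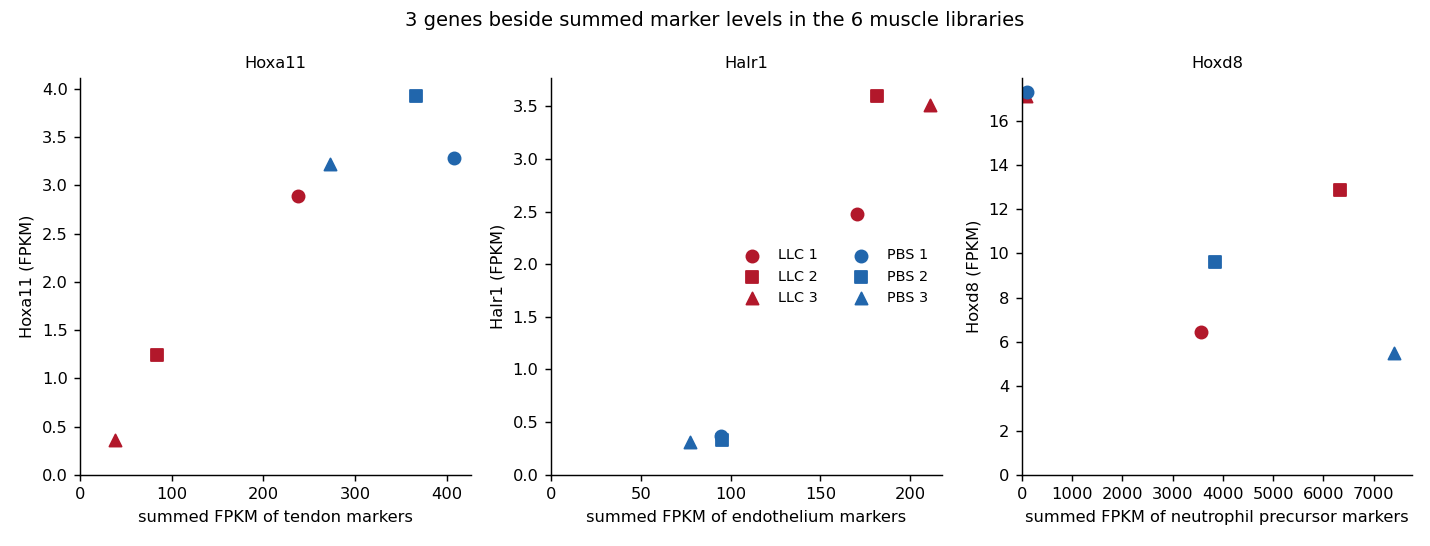
FPKM of Hoxa11, Halr1 and Hoxd8 (y axes) against the summed FPKM of tendon, endothelium and neutrophil precursor markers (x axes) in each muscle library, LLC in red and PBS in blue. Hoxa11 is lowest where the tendon sum is lowest (LLC 3), and Hoxd8 is highest in LLC 3 and PBS 1, where the neutrophil sum is lowest. Halr1 and the endothelium sum are both higher in all LLC than in all PBS libraries, but their order among LLC libraries differs.

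Cofactors and regulators of Hox genes showed no called gene. Of 7 TALE cofactors tested, homeodomain proteins that bind DNA beside Hox proteins, 3 lay above 0 and the median was -0.01 on the log2 scale. Meis1 had a log2 difference of 0.19 (SE 0.16). Of 16 Polycomb genes 8 lay above 0. Ezh1, a Polycomb methyltransferase used in non-dividing cells, stood at 15.9 ± 1.3 FPKM in LLC and 12.1 ± 0.21 FPKM in PBS muscle (log2 difference 0.36, SE 0.10, limma adjusted p = 0.446), and Cbx7, a reader of its mark, at 17.2 ± 1.7 FPKM in LLC and 12.5 ± 0.40 FPKM in PBS muscle (0.43, SE 0.11, limma adjusted p = 0.411), both without overlap. Of 8 trithorax genes and H3K27 demethylases 6 lay above 0. Gdf11, a signal that shifts Hox expression toward posterior genes in the embryo, was at 1.14 ± 0.17 FPKM in LLC and 2.05 ± 0.45 FPKM in PBS muscle, with every LLC library below every PBS library (log2 difference -0.51, SE 0.17, limma adjusted p = 0.535). Of 12 tested genes that flank the clusters 8 lay above 0, with a median of 0.03. All tested genes had a median of 0.01.

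In C2C12 myotubes, open chromatin was present at 2 clusters and absent from the peak list at the other two. The peaks inside the cluster numbered 10 over the 105.5 kb of HoxA (9.5 per 100 kb) and 16 over the 115.7 kb of HoxC (13.8 per 100 kb), while HoxB (96.9 kb) and HoxD (80.0 kb) held 0. The 4 peaks named for Hoxb1 lay 34388 to 48160 bp beyond its start, outside the cluster, and the peak nearest to HoxD was 77.6 kb away and named for Mtx2. Peak means over the 6 libraries ran from 8.79 to 128 tags (scaled to 10 M tags per library), with a median of 41.1, against 29.4 over all peaks. The highest lay 9012 bp downstream of the Hoxc8 start (94.3 ± 7.6 tags in C26 medium and 161 ± 45 tags in control, SD, n = 3), then one 48160 bp from Hoxb1 (79.6 ± 6.8 and 148 ± 54 tags) and one at the Hoxc13 start (76.0 ± 6.5 and 144 ± 52 tags). Of the 34 peaks 19 had been called in all 6 libraries (55.9%, against 60.1% of all peaks).

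**Figure D4:**
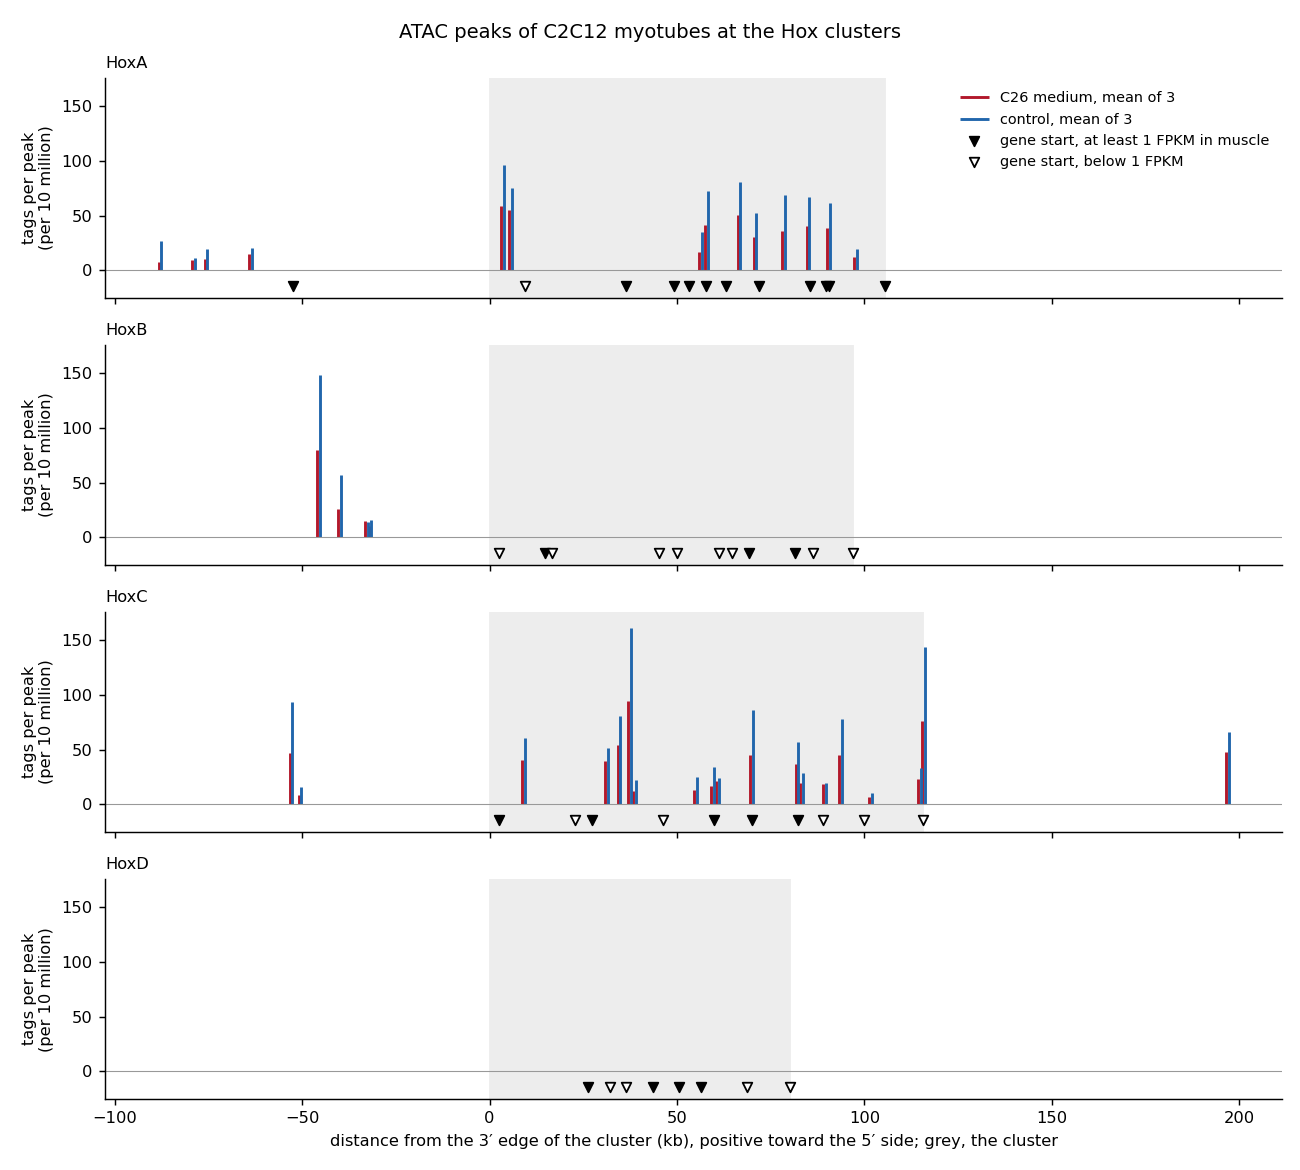
ATAC peaks at the 4 Hox clusters in C2C12 myotubes. The x axis is the distance in kb from the 3′ edge of each cluster, which is shaded, and the y axis is the mean tag number per peak scaled to 10 M tags, red for C26 medium and blue for control (n = 3 each). Triangles are gene starts, filled where muscle RNA reached 1 FPKM. HoxA and HoxC hold 10 and 16 peaks, and HoxB and HoxD hold none inside the cluster.

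Within HoxA and HoxC the open promoters sat mostly at high-numbered genes. A peak centre lay within 1000 bp of the start of 10 of the 42 genes, among them Hoxa3, Hoxa10, Hoxa11 and Hoxa11os in HoxA, and Hoxc9, Hoxc10, Hoxc11, Hotair and Hoxc13 in HoxC. Within these 2 clusters that was 2 of 11 genes of paralog groups 1 to 8 and 7 of 10 of groups 9 to 13. Hoxa11 and Hoxa11os share 1 peak. The 9 peaks nearest these starts ranged in mean from Hotair (18.6 ± 1.0 tags in C26 medium and 19.4 ± 7.1 tags in control) to Hoxc13, and all 9 had a lower mean in C26 medium in the deposited values, though at Hotair the log2 difference was 0.00 there and 0.52 after median-of-ratios scaling. In HoxA no peak centre lay in the 50.8 kb between chr6:52160955 and chr6:52211720, which holds the starts of Hoxa2, Hoxa4, Hoxa5 and Hoxa6. Most of the annotated Hoxa3 span (chr6:52169062-52213067) also lies there. The Hoxa3 start itself, where its peak lay, is between the starts of Hoxa6 and Hoxa7. In HoxC the longest stretch without one was 22.1 kb. For scale, all 9 TALE cofactors and 16 of 18 Polycomb genes had a peak within 1000 bp of their start.

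Position in muscle RNA and in C2C12 chromatin matched at some genes and not at others. Of the 23 genes that reached 1 FPKM in muscle, 7 had an open promoter in C2C12 (Hoxa3, Hoxa10, Hoxa11, Hoxa11os, Hoxc9, Hoxc10 and Hoxc11) and 16 had none. Those 16 were Halr1, Hoxa4, Hoxa5, Hoxa6, Hoxa7, Hoxa9 and Hoxa13, the 3 HoxB genes at that level (Hoxb3os, Hoxb6 and Hoxb7), Hoxc4 and Hoxc6, and Hoxd4, Hoxd8, Hoxd9 and Hoxd10. Hoxa9 missed the limit narrowly. A peak in its exon 1, with a mean of 41.3 tags and called in all 6 libraries, was centred 1145 bp from its start. Within 3000 bp Hoxa9 counted as having a peak. Of the 19 genes below 1 FPKM, 3 had one, among them Hotair and Hoxc13. Hoxc13 had the strongest promoter peak of the 10 and 0.324 ± 0.47 FPKM in LLC and 0.0143 ± 0.025 FPKM in PBS muscle. In groups 9 to 13, 10 of 15 genes reached 1 FPKM in muscle and 6 of these had an open promoter, and in groups 1 to 8, 12 of 25 reached it and 1 had an open promoter. Tissue, cell line and assay differ together here and cannot be told apart.

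With C26 medium 1 of the 34 peaks was called, and it was lower. In limma on log2(value + 1), 704 of 37358 peaks tested (1.88%) were lower and 428 were higher at an adjusted p under 0.05. The one called among the 34 is intergenic, at chr6:52067168-52067631 (mm10), 35550 bp upstream of the Halr1 start. It held 3.12, 11.8 and 7.97 tags in C26 medium 1 to 3, against 37.5, 19.2 and 24.7 tags in controls 1 to 3, from 8, 34 and 29 against 84, 57 and 50 read ends. Every C26 library lay below every control. The means were 7.63 ± 4.4 tags in C26 medium and 27.2 ± 9.4 tags in control (SD, n = 3), and the log2 difference was -1.80 (SE 0.44, limma adjusted p = 0.00483). After median-of-ratios scaling it was -1.31 (SE 0.30, limma adjusted p = 0.00052) and in edgeR -1.21 (adjusted p = 0.00041). The call held in 11 of 14 alternatives and was lost without C26 medium 1 (-1.34, adjusted p = 0.415), without C26 medium 3 (-1.90, adjusted p = 0.0823) and without control 3 (-1.84, adjusted p = 0.112). The other 3 peaks named for Halr1, at 26562, 23239 and 11280 bp upstream, had log2 differences of -0.09 (SE 0.46), -0.87 (SE 0.44) and -0.34 (SE 0.42) and were not called. RNA of Halr1 was higher in LLC muscle and this peak was lower in C26-treated myotubes, in different tumour models and different material.

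At the other peaks the size of the difference, and at 10 of the 34 its sign, depended on the scaling. All peaks together had a median log2 difference of -0.54 in the deposited values and -0.02 after median-of-ratios scaling, and the 34 peaks had medians of -0.64 and -0.13. In the deposited values 2 of 34 lay above 0, and after scaling 12 did, while 22 lay below 0 in both. All C26 libraries lay below all controls at 15 of the 34, against 33.3% of all peaks. After scaling 4753 peaks (12.7%) were lower and 6368 (17.0%) higher, and among the 34 there were 7 lower and 0 higher. Beside the Halr1 peak those 7 were the peaks 42525 and 48160 bp beyond Hoxb1, the promoters of Hoxc13 and Hoxc10, a peak 55475 bp beyond the Hoxc4 start and one in the intron of Hoxa10, with scaled log2 differences from -0.55 to -0.30. At the Hoxc10 promoter the deposited values were 42.9, 42.3 and 50.5 tags in C26 medium 1 to 3, against 118, 62.1 and 78.6 tags in controls 1 to 3, with a scaled log2 difference of -0.34 (SE 0.11, limma adjusted p = 0.0177). The promoters of Hoxa11 (38.3 ± 3.3 tags in C26 medium and 61.9 ± 16 tags in control) and Hoxa3 (41.1 ± 3.2 and 72.1 ± 32 tags) were not called in either fit, with scaled log2 differences of -0.12 (SE 0.13) and -0.18 (SE 0.12). Control 1, with the largest share of read ends in peaks, was the highest control at all 34 peaks. Without control 2 the number of peaks called lower among the 34 was 24, where 19854 of all 37358 peaks tested were called lower.

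**Figure D5:**
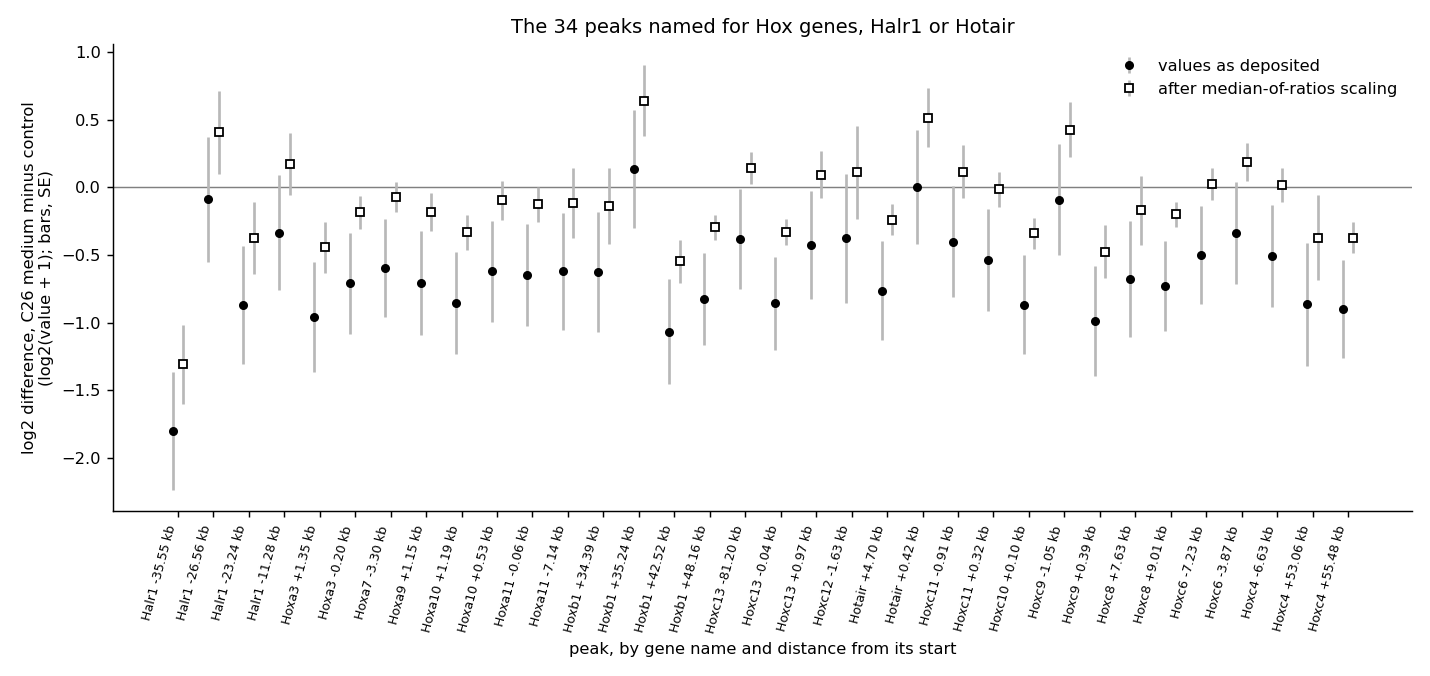
Log2 difference between C26 medium and control for the 34 peaks (y axis, log2(value + 1), bars are SE, n = 3 each), by gene name and signed distance from the gene's start, negative upstream (x axis). Filled circles are deposited values and open squares are values after median-of-ratios scaling. The peak 35550 bp upstream of Halr1 is the lowest on both scales, and scaling moves all 34 upward, some past 0.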

How the data were processed

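The RNA values are FPKM that the authors made with HOMER from exons of RefSeq genes (mm10), with both strands counted together and 1 transcript kept per gene, per the file headers. For ATAC the authors deposited a signal, the tag number in each merged peak scaled to 10 M (1 M is 1000000) tags a library, as the file headers state, and each peak stood in at least 2 of 6 lists. HISAT2, HOMER, DESeq2, Bowtie2 and MACS2 are named in the submitters' processing notes, with GRCm38 and mm10; no versions appear there.

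Members were all symbols beginning with Hoxa to Hoxd and a number, Halr1 and Hotair. The members and gene lists were chosen with earlier results of these data known. Named were all members with a mean of at least 1 FPKM in a group, Halr1, Hotair and the highest-numbered gene of each cluster, then promoter peaks, called peaks and the 3 highest peaks per cluster, and up to 3 genes of other lists. Genes averaging 1 FPKM or more and peaks averaging 5 tags or more were tested on log2(value + 1), which understates folds of low genes, with limma 3.58.1 (trend, two-sided, Benjamini-Hochberg, threshold 0.05) in R 4.3.3. Read ends, recovered from the steps of the values (100% whole within 0.1 among those checked), went into the quasi-likelihood test of edgeR 4.0.16. The fits were tested on simulated data. Same replicate numbers gave no consistent pairing of the libraries. Promoter sequences are from RefSeq (GRCm38.p6). Figures used Python 3.11.15 and matplotlib 3.10.9. All 12 sample columns were used. Some genes, among them 1 member that is also left out of the figures, are not reported here.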

Additional observations from a re-analysis of the deposited data

How the results depend on the processing

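The calls among the Hox genes in muscle did not depend on the processing, with 0 called under all 16 alternatives run. At a mean of at least 5 FPKM only 3 of them were tested, and Halr1 was not. Over all genes the count was 0 except 1 at a mean of at least 5 FPKM, 2 in TPM, 1 after median-of-ratios scaling and 1 after quantile normalization. The numbers of genes at 1 FPKM and of genes with an open promoter moved by under 1.5 times, except that 3 genes reached 5 FPKM. All LLC libraries lay above all PBS libraries for 15 to 17 Hox genes when 1 library was left out and for 18 without LLC 3 and PBS 1, an alternative chosen after seeing the data, when 10.9 to 14.1% and 16.4% of all genes did. They lay below for 1 to 5 when 1 library was left out, most without LLC 1, when 5.2 to 22.9% of all genes did. The share of 22.9% was without PBS 1, where 1 Hox gene lay below. Leaving out a library can only keep or raise such counts, so these ranges could not have shown a loss.

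The ATAC counts did depend on it. All peaks called numbered 471 at a mean of at least 20 tags, 11121 after median-of-ratios scaling, 11021 after quantile normalization, 2602 without trend and 11354 in edgeR, and 133 to 20602 when 1 library was left out. At a mean of at least 20 tags 23 of the 34 Hox peaks were tested and 0 called. The peak 35550 bp upstream of Halr1, with a mean of 17.4 tags, was not among those tested. Called among the 34 were 7 after median-of-ratios scaling, 8 after quantile normalization, 6 in edgeR and 0 to 24 when 1 library was left out. The highest values came without control 2, and the cause was not tested.

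Differences near 0 changed sign. Without 1 library the log2 difference ran from -0.294 to 0.18 for Hoxc11, -0.136 to 0.24 for Hoxc10, -0.192 to 0.0395 for Hoxc4, -0.277 to 0.19 for Hoxd10, -0.11 to 0.509 for Hoxd9 and -0.178 to 0.571 for Hoxd8. For the peak 35245 bp beyond Hoxb1 it ran from -0.263 to 0.347 and for the Hotair promoter from -0.282 to 0.246. Hoxc10 was at -0.00958 after median-of-ratios scaling and -0.0779 in edgeR, Hoxd10 at 0.00347 in TPM, the Hotair promoter at -0.0061 with a pseudocount of 5 and the Hoxc11 promoter at 0.00294 in edgeR.

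Samples that share a replicate number did not deviate together, with correlations of -0.0906, 0.599 and -0.599 in RNA and -0.0107, 0.00817 and -0.0168 in ATAC. With the replicate number as a block, 0 genes in RNA and 1071 peaks were called, with 0 and 1 of the Hox members. Halr1 then had an adjusted p of 0.642. Many Hox genes had under 100 read ends in a library, and the power to detect a difference in them was not measured.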

Other observations

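Neighbours of the clusters and other genes of body position gave values of their own in muscle. Calcoco1, a receptor for selective autophagy that lies beside HoxC, stood at 43.6, 40.8 and 46.0 FPKM in LLC 1 to 3, against 31.5, 31.2 and 27.4 FPKM in PBS 1 to 3. The groups did not overlap, and the log2 difference was 0.52 (SE 0.11, limma adjusted p = 0.299). Lbx1, which guides muscle precursors into the limb, was at 18.5 ± 0.75 FPKM in LLC and 21.9 ± 3.1 FPKM in PBS muscle, with overlapping groups (SD, n = 3 each). These genes were picked from longer lists after their values had been seen.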
